A study of Mus musculus with 4 samples.

Results

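The epiphyses of the mouse tibia and femur, the cartilage ends of the long bones, held a set of chondrocytes with high RNA of Matn1 and, at a lower level, Frzb. A barcode was counted as such a cell when it had at least 500 genes, no more than 15% mitochondrial UMIs, no UMI of the blood cell gene Ptprc and, per 10000 of its UMIs, 100 or more of the cartilage collagen Col2a1 and 30 or more of Matn1 and Frzb together. The rule also required Prg4 (lubricin, of the joint surface) under 10, the hypertrophic genes Col10a1, Ihh and Panx3 under 10 in sum, the resting zone genes Sfrp5, Pcp4 and Pappa2 under 5 in sum, and cycle genes (Mki67, Top2a, Cdk1, Ccnb1, Ccna2, Cenpf, Birc5, Ube2c) under 5 in sum. Members were thus chosen by measured RNA levels of these genes. The rule selected 704 of 30952 kept barcodes. These were 595 in wild-type mice at postnatal day 13, 26 in wild-type mice at day 19, and 48 and 35 at days 13 and 19 in Sox9fl:fl AcanCreERT2/+ mice, which carry floxed Sox9 and a tamoxifen-dependent Cre recombinase under the cartilage gene Acan. The study captured cells of digested epiphyses in 1 droplet library for each genotype and age. Recombination in such mice depends on tamoxifen and on Acan activity. The series' design text names older mice and a further genotype with Sox8 also mutated; it does not match the sample labels, which were followed. The sources used here do not give the tamoxifen schedule, the floxed exons, the strain or how many mice went into a library.

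Below, the second genotype is called the mutant, and the selected barcodes are called members. Where 2 values are given for a genotype, day 13 comes first, and values are of members unless another class is named. Library totals were 70507107 to 76080803 UMIs, and 19 to 44 barcode sequences were shared between any 2 libraries. The summed UMIs of the members were 8229944 and 452552 in the wild type and 649819 and 404380 in the mutant. Levels are given as CPM (counts per 1e6), the UMIs of a gene per 1e6 UMIs summed over the members of a library. With 26 to 48 members in 3 of the libraries, 1 barcode can supply much of a sum, and its share is given where it is large.

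Chondrocytes build a matrix of collagen II fibrils, with collagens IX and XI, around large aggregates of the proteoglycan aggrecan. SOX9, acting with SOX5 and SOX6, is the transcription factor that switches these genes on. Matn1 encodes matrilin-1, an adaptor protein that links collagen fibrils and proteoglycans in epiphyseal and growth plate cartilage. Frzb encodes a secreted frizzled-related protein that binds Wnt ligands and keeps them from their receptors. Further genes taken as markers of these cells are Enho (the adropin precursor), Il17d (a cytokine of the interleukin-17 family) and Cd200 (a surface glycoprotein of the immunoglobulin family).

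In GENCODE's annotation Matn1 lies on chromosome 4 from 130944385 to 130955475 on the plus strand of GRCm38, and Frzb on chromosome 2 from 80411970 to 80447625 on the minus strand. The 250 bases before the start of Matn1, from RefSeq (GRCm38.p6), are shown because this gene set most of the membership and Sox9 is floxed in the mutant. They are chr4:130944135-130944384, written 5' to 3' on the strand of the gene, with matches to the TCF/LEF core CTTTG or its reverse complement CAAAG in capitals.
Matn1: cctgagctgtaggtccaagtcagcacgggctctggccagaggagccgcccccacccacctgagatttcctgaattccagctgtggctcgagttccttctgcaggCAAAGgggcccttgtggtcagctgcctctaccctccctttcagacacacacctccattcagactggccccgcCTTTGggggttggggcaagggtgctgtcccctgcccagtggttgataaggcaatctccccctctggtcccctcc
The window held 2 such matches, at -146 to -142 and -74 to -70 from the start. The SOX core ACAAT (or ATTGT) was not found in it. No other form of a SOX site was searched for, so the window may hold others. Of 32851 mouse promoters of this length, 48.6% held the TCF/LEF core and 27.7% the SOX core. For Frzb the RefSeq start lies inside GENCODE's first exon, so that most of the bases before it are 5' UTR by GENCODE, and they are not shown.

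Membership rested on Matn1 far more than on Frzb. The median member held 43.9 and 41.8 Matn1 UMIs per 10000 in the wild type and 39.8 and 43.1 in the mutant, against 4.37 and 7.67 Frzb UMIs in the wild type and 2.96 and 4.28 in the mutant. Matn1 alone reached the minimum of 30 in 531, 22, 43 and 28 members (wild type at days 13 and 19, then mutant), and Frzb alone in 1, 0, 0 and 1. No member lacked Matn1, while 99 of 595 and 2 of 26 wild-type members and 8 of 48 and 2 of 35 mutant members had no Frzb UMI. Just inside the minimum, at 30 to 40, lay 197 and 6 wild-type and 19 and 14 mutant members, and just outside, at 20 to 30, lay 406 and 20 wild-type and 34 and 35 mutant barcodes. The set is thus the upper end of a continuous range of Matn1 and not a group with an empty gap below it. These values chose the members and carry no test.

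**Figure D1:**
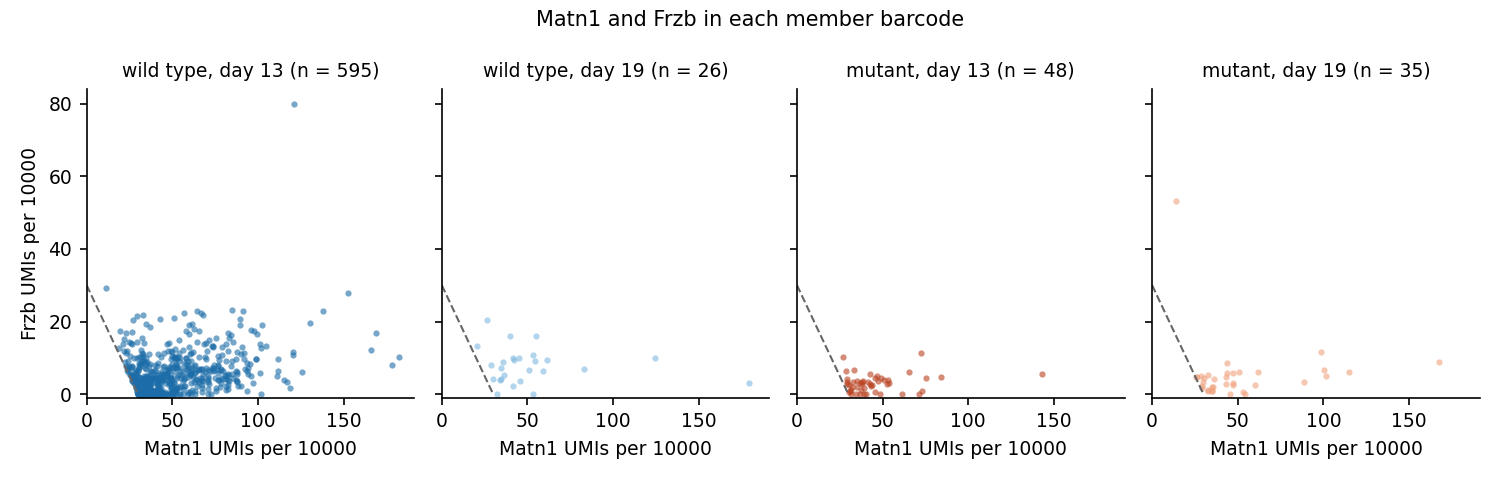
Matn1 (x axis) against Frzb (y axis), both as UMIs per 10000 UMIs of a barcode, for each member in the 4 libraries; the dashed line is the minimum of 30 for their sum. Most points lie along the Matn1 axis with Frzb under 20, and 1 barcode in the wild type at day 13 and 1 in the mutant at day 19 hold 30 or more Frzb UMIs.

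The members carried the profile of cartilage. Acan and Col9a1 were found in at least 97.9% of members in every library, and members had medians of 13315 and 18071.5 UMIs in the wild type and 14696.5 and 10177 in the mutant. Among members thinned to 2000 UMIs, leaving out 11 of 595 in the largest library, a Frzb UMI was seen in 55.7% and 65.4% in the wild type and 45.7% and 47.1% in the mutant, against 83.4% and 92.3%, and 83.3% and 94.3%, at full depth. In neutrophil barcodes (Csf3r at 1 UMI or more, S100a8 and S100a9 at 200 or more per 10000 in sum), which should lack the gene, the thinned share was 6.06% and 0% in the wild type (0 of 247, exact upper bound 1.48%) and 5.48% and 1.20% in the mutant, at median depths of 1750 to 3772 UMIs. The corresponding shares for Cd200 were 27.7% and 34.6%, and 21.7% and 32.4%, in members, and 3.03% and 0%, and 4.79% and 0.797%, in neutrophil barcodes. Cd200 was thus seen in a larger share of members than of neutrophil barcodes in each library, while the Frzb shares describe a gene of the rule. Matn1 itself was seen in 25.8% of thinned neutrophil barcodes of the wild type at day 13 and in 1.79% to 4.11% of those of the other libraries.

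Members were common in 1 library only. They made up 13.1% of chondrocyte barcodes (Col2a1 at 100 or more, no Ptprc) in the wild type at day 13, or 595 of 4541 (exact 95% interval 12.1 to 14.1%), and 2.39% at day 19, or 26 of 1088 (1.57 to 3.48%). In the mutant they made up 1.85%, or 48 of 2599 (1.36 to 2.44%), and 1.55%, or 35 of 2252 (1.08 to 2.15%). The mutant share at day 13 lay below the wild-type share by more than counting error, with a log2 ratio of -2.83. At day 19 the intervals overlapped and the log2 ratio was -0.62. Each group is 1 library, so no replicate check of the shares exists, and no test was run on them. Fewer cells and less Matn1 RNA per cell give the same share under this rule.

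**Figure D2:**
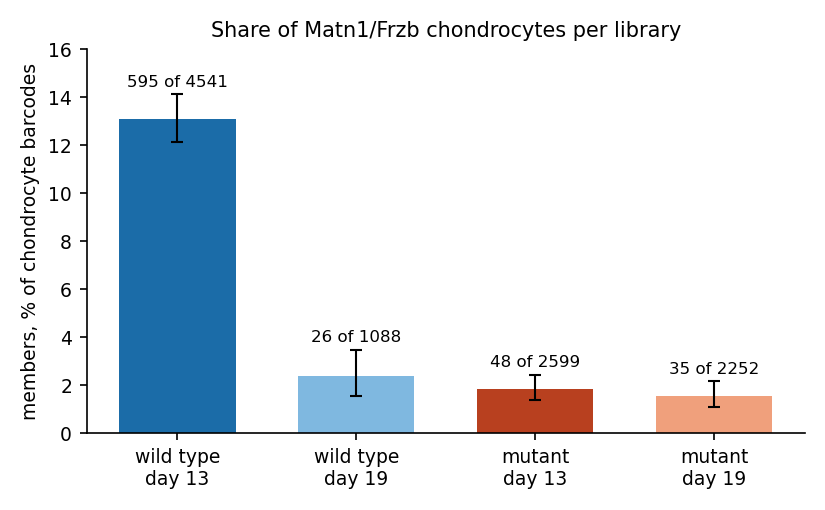
Members as a percentage of chondrocyte barcodes (y axis) in each library (x axis), with exact 95% binomial intervals that cover counting error only. The wild type at day 13 stands at 13.1%, and the other libraries lie between 1.55% and 2.39%.

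The wild-type members at day 13, the library with most of them, were not of a single kind. Their Frzb level ran opposite to that of a set of genes known from maturing growth plate chondrocytes. In the 99 members with no Frzb UMI, C1qtnf3 (a secreted cartilage protein) stood at 1251 CPM and Prelp (a leucine-rich matrix proteoglycan) at 1221 CPM. In the 229 members with Frzb under 5 per 10000 they stood at 364 and 352 CPM, and in the 267 with 5 or more at 46.0 and 34.0 CPM. The last pair is at or below the neutrophil barcodes of the same library, at 48.4 and 62.9 CPM. Il17b (an interleukin-17 family cytokine) followed the same order, at 301, 199 and 84.4 CPM, as did Ppa1 (inorganic pyrophosphatase), at 1659, 1117 and 313 CPM. Acan was at 5702, 3811 and 3762 CPM.

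The named markers went the other way. Cd200 went from 19.5 CPM in members without Frzb to 171 and 257 CPM, Il17d from 56.9 to 183 and 234 CPM, and Enho from 70.7 to 167 and 199 CPM. Dlk1, a Notch-like membrane protein, stood at 116, 679 and 578 CPM. Over the 595 barcodes, Spearman's rho of Frzb was -0.58 with Prelp, -0.50 with C1qtnf3, 0.45 with Cd200 and 0.28 with Matn1, while Prelp and C1qtnf3 had a rho of 0.58 with each other. Frzb itself had a rho of -0.01 with the total UMIs of a barcode. These are cells of 1 library and the correlations are given as a description. Members without Frzb thus met the rule through Matn1 with less Cd200 and Il17d than the other members.

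As a description, members were set beside the other chondrocytes, the 6339 barcodes that met every clause but had Matn1 and Frzb under 30. Outside the rule genes, Cd200 and Il17d stood higher in members in each of the 4 libraries. Cd200 was at 187 and 209.9 CPM in the wild type and 140 and 173 CPM in the mutant among members, and at 76.8 and 74.6 CPM in the wild type and 54.7 and 50.2 CPM in the mutant among the other chondrocytes. Il17d was at 187 and 221 CPM in the wild type and 280.1 and 215 CPM in the mutant among members, and at 95.8 and 95.4 CPM in the wild type and 57.1 and 61.3 CPM in the mutant among the other chondrocytes. Il17d was not particular to members in the wild type. After thinning, an Il17d UMI was seen in 26.9% and 38.5% of wild-type members. In wild-type chondrocyte barcodes with Prg4 at 10 or more, the shares were 24.8% and 39.7%. The mutant shares were 34.8% and 35.3% of members and 13.1% and 14.4% of barcodes with Prg4 at 10 or more. Acta2 (smooth muscle actin) was at 97.3 and 92.8 CPM in the wild type and 120 and 166 CPM in the mutant, but 1 barcode held 52.4% to 68.7% of its UMIs in the 3 small libraries. Cpe (carboxypeptidase E) was at 851 and 926 CPM in the wild type and 1031 and 1002 CPM in the mutant among members, against 443 and 409.5 CPM in the wild type and 509 and 465 CPM in the mutant among the other chondrocytes, and Cox4i2 (a cytochrome oxidase subunit) at 687 and 1021 CPM in the wild type and 697 and 772 CPM in the mutant among members, against 359.8 and 487 CPM in the wild type and 352 and 327 CPM in the mutant among the other chondrocytes. Srpx2, a secreted sushi-domain protein, was at 265 and 373 CPM in the wild type and 408 and 349 CPM in the mutant among members, against 132 and 136 CPM in the wild type and 188 and 189 CPM in the mutant among the other chondrocytes. G0s2, A2m, Efemp1, Kank1, Ramp1 and Tubb2b were also higher in all 4 libraries.

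Lower in members in all 4 libraries was Wif1, a secreted Wnt inhibitor, at 75.9 and 48.6 CPM in the wild type and 55.4 and 29.7 CPM in the mutant among members, against 303 and 334 CPM in the wild type and 391 and 464 CPM in the mutant among the other chondrocytes. Tgfbi, a matrix protein induced by TGF-beta, was at 80.4 and 28.7 CPM in the wild type and 23.1 and 4.95 CPM in the mutant among members, against 208 and 189.8 CPM in the wild type and 205 and 209 CPM in the mutant among the other chondrocytes. The fibrous collagens Col1a1, Col12a1 and Col15a1, the hedgehog receptor Ptch1, the matrix protein Thbs3, and Igfbp7, Fxyd5, Fkbp7, Lsp1 and Crip1 completed the list of 12. Col12a1, for instance, stood at 108 and 106 CPM in the wild type and 206 and 151 CPM in the mutant among members, against 252 and 331 CPM in the wild type and 583 and 597 CPM in the mutant among the other chondrocytes. Ptch1 stood at 32.7 and 35.4 CPM in the wild type and 29.2 and 34.6 CPM in the mutant among members, against 78.5 and 75.1 CPM in the wild type and 93.1 and 71.2 CPM in the mutant among the other chondrocytes.

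The mutant was compared with the wild type among members, none of which lacked Matn1. Sox9 itself was at 318 and 471 CPM in the wild type and 188 and 178 CPM in the mutant. Both mutant values lay below both wild-type values, and Sox9 fell by edgeR's quasi-likelihood test on summed UMIs with age as covariate (log2 ratio -1.04, SE 0.25, adjusted p = 0.00907). The log2 CPM ratio was -0.76 (95% interval -1.03 to -0.50) at day 13 and -1.40 (-1.81 to -1.01) at day 19, with intervals for counting error only. In thinned barcodes a Sox9 UMI was seen in 41.1% and 61.5% of wild-type members and in 32.6% and 20.6% of mutant members, against 3.64% to 12.3% of neutrophil barcodes. Sox9 RNA in mutant members was thus above that level at both ages. The Sox9 call was lost in DESeq2 (adjusted p = 0.15), without an age term (0.125), with the minimum at 60 (0.525) and without the haemoglobin-rich barcodes (0.0686), with the ratio negative in each. The UMIs do not tell a full transcript from one that lacks the floxed part. Each genotype has 1 library per age, so the p-values take the 2 ages as replicates and measure no spread between mice.

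Over 4786 genes outside the rule, 110 (2.3%) were higher and 59 (1.23%) lower in mutant members at an adjusted p under 0.05, 3.53% in all. DESeq2 called 26 and 11, and leaving out the members with 500 or more haemoglobin UMIs per 10000 (5 wild-type members at day 13 and 1 mutant member at each age) left 31 and 24. Without an age term 13 and 2 passed, and with a minimum of 60 for Matn1 and Frzb 2 and 0 (156 genes at an unadjusted p under 0.05). The number of calls thus moved with these choices. Of the genes described below for the size of their change, Lbh, Kazald1, Tnni2 and Meltf did not pass in DESeq2, and only Dkk1, Bglap, Ogn, Csrp2, Alpl, Col5a1, Il17b and Fam89a passed without an age term. Of the 110 higher genes, 65 stood above the neutrophil barcodes in both mutant libraries and 30 stood 3-fold above them, and for 17 a single barcode held 50% or more of the UMIs in a mutant library. For the 59 lower genes, 47 stood above the neutrophil barcodes in both wild-type libraries, 36 of them 3-fold, and for 14 a single barcode held 50% or more in a wild-type library. Over all 4794 genes fitted, the median log2 ratio was 0.06 and -0.10.

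The markers of these cells did not pass the genotype test, and neither did the Sox9 partners. Enho was at 167 and 247 CPM in the wild type and 143 and 178 CPM in the mutant (log2 ratio -0.33, SE 0.23, adjusted p = 0.616), Il17d at 187 and 221 CPM against 280.1 and 215 CPM (adjusted p = 0.634), and Cd200 at 187 and 209.9 CPM against 140 and 173 CPM (adjusted p = 0.59). At an unadjusted p under 0.05, 0 of these 3 markers passed, and DESeq2 called 0. Sox5 stood at 131 and 137 CPM in the wild type and 138 and 111 CPM in the mutant, Sox6 at 49.3 and 61.9 CPM in the wild type and 72.3 and 61.8 CPM in the mutant and Sox8 at 34.8 and 39.8 CPM in the wild type and 12.3 and 39.6 CPM in the mutant. The adjusted p was 0.96 for Sox5, 0.694 for Sox6 and 0.462 for Sox8. Sox9 was the 1 of the 18 chondrocyte transcription factors tested that passed, and the list's median log2 ratios were 0.20 and 0.03.

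Acan fell, while collagens IX and XI passed in neither direction. Acan, the core protein of aggrecan, was at 4072 and 4134 CPM in the wild type and 1793 and 1044 CPM in the mutant (log2 ratio -1.56, SE 0.36, adjusted p = 0.00778). The Cre allele is at this gene. The Acan call was lost without an age term, with the minimum at 60 and without the haemoglobin-rich barcodes. Of the 9 fibril collagens and partners, 0 were lower and 3 higher, and these were the chains of collagen VI, a pericellular microfibril. Col6a2 was at 368 and 486 CPM in the wild type and 1020 and 826 CPM in the mutant (log2 ratio 1.15, SE 0.28, adjusted p = 0.012), and Col6a1 and Col6a3 had adjusted p of 0.0474 and 0.0131. DESeq2 called Col6a2 and neither of the others. Col9a1 stood at 3963 and 3761 CPM in the wild type and 3221 and 2475 CPM in the mutant (adjusted p = 0.711), Col9a2 at 4589 and 3980 CPM in the wild type and 2952 and 1667 CPM in the mutant (adjusted p = 0.212) and Col11a1 at 7261 and 9778 CPM in the wild type and 7345 and 4919 CPM in the mutant (adjusted p = 0.757). The list's median log2 ratios were 0.02 and -0.71. Of the 8 aggregate proteoglycans and linkers tested, Acan passed, with list medians of -0.12 and -0.18. Comp, a pentameric matrix protein, stood at 3298 and 5219 CPM in the wild type and 5806 and 9590 CPM in the mutant (adjusted p = 0.33).

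Of 10 tested members of the sulfation and chondroitin sulfate list 3 were lower and 0 higher in edgeR, and DESeq2 called only Chst11 of them, with list medians of -0.56 and -0.72. Chst11, a chondroitin 4-sulfotransferase, was at 350.1 and 367 CPM in the wild type and 166 and 119 CPM in the mutant (log2 ratio -1.31, SE 0.25, adjusted p = 8.01e-04). Papss2, which makes the sulfate donor PAPS, was at 206 and 336 CPM in the wild type and 125 and 79.1 CPM in the mutant (log2 ratio -1.29, SE 0.26, adjusted p = 0.00211), and Slc26a2, the sulfate transporter, at 94.4 and 161 CPM in the wild type and 58.5 and 69.2 CPM in the mutant (log2 ratio -0.91, SE 0.27, adjusted p = 0.0453). For each of these 3 genes both mutant values lay below both wild-type values. Csgalnact1, which starts chondroitin chains, stood at 52.0 and 72.9 CPM in the wild type and 33.9 and 29.7 CPM in the mutant and did not pass (adjusted p = 0.156).

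Among 18 leucine-rich proteoglycans and cartilage proteins, 2 rose and 2 fell, with list medians of 0.17 and 0.36, and DESeq2 called Ogn and Prelp but not Cytl1 and Papss2. Ogn (osteoglycin) was at 54.7 and 72.9 CPM in the wild type and 222 and 326 CPM in the mutant (log2 ratio 2.08, SE 0.24, adjusted p = 1.90e-07), and Cytl1, a secreted cartilage cytokine, at 34.3 and 22.1 CPM in the wild type and 83.1 and 116 CPM in the mutant (log2 ratio 1.60, SE 0.30, adjusted p = 6.47e-04). A single barcode held 100% of the Cytl1 UMIs in the wild type at day 19. Prelp was at 339.9 and 133 CPM in the wild type and 47.7 and 14.8 CPM in the mutant (log2 ratio -2.93, SE 0.30, adjusted p = 1.17e-08), and Papss2 was the other that fell. Ucma, a small vitamin K-dependent cartilage protein, stood at 1762 and 1416 CPM in the wild type and 1330 and 1949 CPM in the mutant and Cnmd (chondromodulin) at 2134 and 2263 CPM in the wild type and 1788 and 1756 CPM in the mutant. Neither passed the test, with adjusted p of 0.993 and 0.816.

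Set against the other chondrocytes, several of these ratios differed by class. The class by genotype term, which compares the mutant to wild-type ratio of members with that of the other class, was called higher for 55 (0.42%) and lower for 67 (0.512%) of 13090 genes. Ucma in the other class was at 2442 and 2469 CPM in the wild type and 479 and 812 CPM in the mutant, with a term of 2.08 (SE 0.25, adjusted p = 7.57e-14). For Matn3 (matrilin-3), the values were 1409 and 1385 CPM in the wild type and 1150 and 692 CPM in the mutant among members, and 1228 and 1389 CPM in the wild type and 213 and 371 CPM in the mutant among the other chondrocytes, with a term of 1.66 (SE 0.25, adjusted p = 4.84e-08). Col9a3 was at 7872 and 8087 CPM in the wild type and 5174 and 3939 CPM in the mutant among members, and at 7334 and 7650 CPM in the wild type and 1873 and 2222 CPM in the mutant among the other chondrocytes, with a term of 1.13 (SE 0.24, adjusted p = 6.26e-04). Col9a2, Hapln1 and Cnmd had terms of 1.04 (SE 0.24, adjusted p = 0.00421), 0.97 (SE 0.25, adjusted p = 0.0118) and 0.87 (SE 0.24, adjusted p = 0.0425). Enho was at 121 and 114 CPM in the wild type and 30.7 and 41.8 CPM in the mutant among the other chondrocytes, with a term of 1.47 (SE 0.27, adjusted p = 2.34e-05), and Il17d had a term of 1.07 (SE 0.26, adjusted p = 0.00787). For Cd200 the term was 0.26 (SE 0.27, adjusted p = 1), and for Sox9 and Acan 0.09 (SE 0.27, adjusted p = 1) and 0.43 (SE 0.25, adjusted p = 0.927).

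Of the 9 collagens and partners, 2 had a higher class term, and of 10 aggregate proteoglycans and linkers 2, of 18 leucine-rich proteoglycans and cartilage proteins 4 (with 1 lower) and of 12 sulfation genes 1. Of the 3 markers 2 had a higher term, but these were chosen as genes of the members with earlier results of these data known. The marker terms are thus a description and not independent evidence. The mutant to wild-type ratio of the genes with a higher term was therefore higher in members than in the other chondrocytes. In the other class itself 6 of 9 collagens and partners fell and 3 rose, where 13.3% of 14029 genes rose and 12.2% fell, 25.5% in all. That class held 9423240 to 27793748 UMIs per library, so the 2 counts of called genes are not comparable. Members had to reach the same Matn1 minimum in both genotypes, and chondrocytes of the mutant that fell below it are in the other class. That selection and a smaller response of the cells cannot be told apart here.

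**Figure D3:**
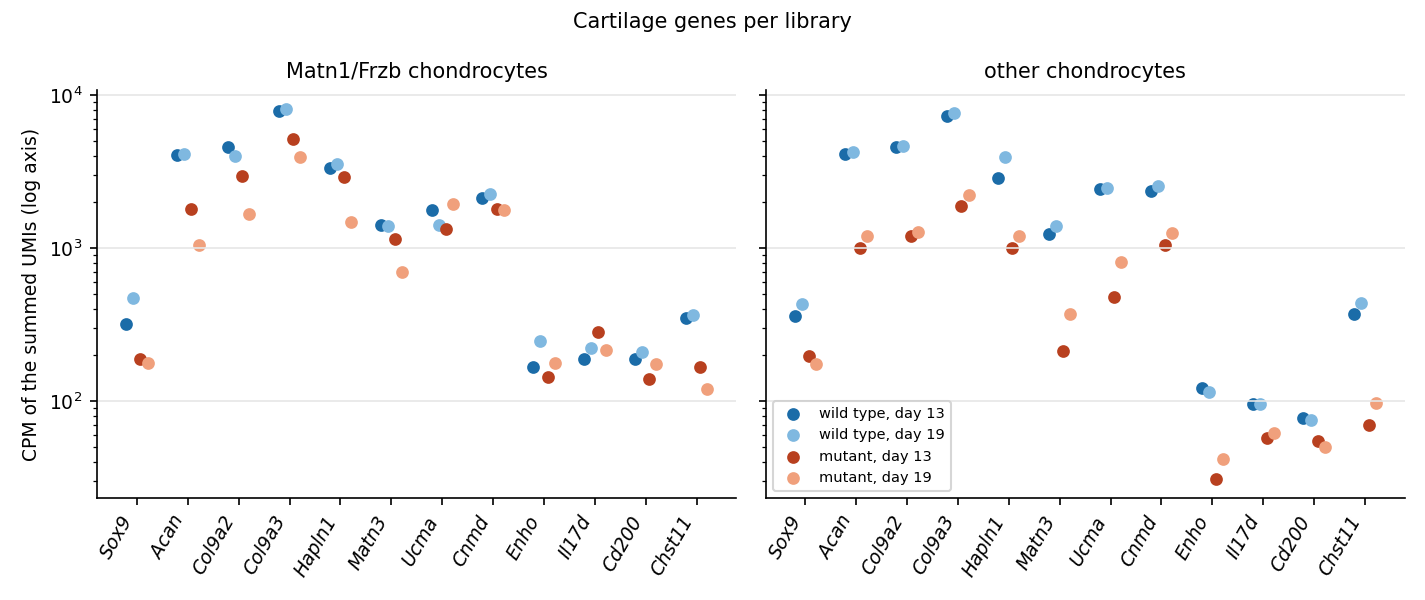
Level of 12 cartilage genes as CPM of summed UMIs (y axis, log scale) in members (left) and other chondrocytes (right), 1 point per library. Sox9, Acan and Chst11 are lower in the mutant in both panels; Ucma, Enho and Il17d have mutant points among or near the wild-type points in members and below them in the other chondrocytes.

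Wnt genes were mostly too low to test. Of 8 Wnt ligands 1 was tested, and it fell: Wnt4 was at 64.8 and 44.2 CPM in the wild type and 15.4 and 7.42 CPM in the mutant (log2 ratio -2.22, SE 0.40, adjusted p = 5.33e-04), with 21.3 and 13.4 CPM in mutant neutrophil barcodes. DESeq2 did not call it, and it passed the low-count filter through the wild-type libraries, where it was higher. Of 6 Wnt receptors tested, 0 passed, 2 had an unadjusted p under 0.05 and DESeq2 called 0, with medians of 0.51 and -0.35. Of 8 Wnt effectors and targets 0 passed, 1 had an unadjusted p under 0.05 and DESeq2 called 0, with medians of 0.20 and -0.46. Among 4 secreted antagonists tested, Dkk1 rose and Sfrp2 fell, with medians of -0.47 and -0.36, and DESeq2 called Dkk1 and gave no adjusted p for Sfrp2.

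Dkk1, which blocks the LRP5/6 co-receptors, was at 1.46 and 4.42 CPM in the wild type and 55.4 and 86.6 CPM in the mutant (log2 ratio 4.99, SE 0.46, adjusted p = 3.15e-09). It was read in 16.7% and 14.3% of mutant members and in 1.18% and 7.69% of wild-type members, and 1 barcode held 27.8% and 68.6% of its mutant UMIs. In mutant neutrophil barcodes it was at 0 and 3.88 CPM. Dkk1 passed the low-count filter through the mutant libraries, where it was higher. In the other chondrocytes Dkk1 was at 2.41 and 3.18 CPM in the wild type and 11.4 and 8.23 CPM in the mutant, and the class by genotype term was 3.37 (SE 0.56, adjusted p = 1.21e-06). Sfrp2, a relative of Frzb, was at 26.5 and 42.0 CPM in the wild type and 7.69 and 2.47 CPM in the mutant (log2 ratio -2.45, SE 0.56, adjusted p = 0.00676) and moved the opposite way in the other chondrocytes, at 23.2 and 26.5 CPM in the wild type and 110.3 and 107 CPM in the mutant. Its class by genotype term was -4.55 (SE 0.47, adjusted p = 8.83e-19). The mutant members held 5 and 1 Sfrp2 UMIs, so that ratio rests on few counts.

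Among BMP and TGF-beta genes (15 tested, medians 0.18 and 0.05), the BMP antagonist Nog fell, at 48.6 and 72.9 CPM in the wild type and 21.5 and 19.8 CPM in the mutant (log2 ratio -1.44, SE 0.35, adjusted p = 0.012), and the ligand Tgfb3 rose, at 8.26 and 15.5 CPM in the wild type and 32.3 and 42.0 CPM in the mutant (log2 ratio 1.79, SE 0.43, adjusted p = 0.0109). DESeq2 called 0 of these 15. In FGF and IGF signalling (9 tested, medians 0.46 and 0.66), Igfbp5, a binding protein of insulin-like growth factors, rose in both tools. It stood at 21.9 and 68.5 CPM in the wild type and 199 and 255 CPM in the mutant (log2 ratio 2.68, SE 0.27, adjusted p = 1.17e-08), with 182 and 63.0 CPM in mutant neutrophil barcodes and 1 barcode holding 54.8% of the UMIs in the wild type at day 19. Of 7 hedgehog and PTHrP genes 0 passed in edgeR, with medians of 0.14 and -0.03, 2 at an unadjusted p under 0.05 and 0 by DESeq2. The hedgehog co-receptor Boc came nearest, at 67.0 and 102 CPM in the wild type and 149 and 126 CPM in the mutant (adjusted p = 0.0603).

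Of 4 superficial zone genes tested, Clu (clusterin) rose, at 98.3 and 148 CPM in the wild type and 228 and 185 CPM in the mutant (adjusted p = 0.0393), with medians of 0.52 and 0.14. Of 8 resting zone genes Barx1, a homeobox factor, rose, at 47.5 and 70.7 CPM in the wild type and 103 and 111 CPM in the mutant (adjusted p = 0.0362), with medians of 0.07 and 0.56. DESeq2 called neither Clu nor Barx1. The 15 prehypertrophic and hypertrophic genes tested split, with 4 higher and 5 lower and medians of 0.20 and -0.73, and DESeq2 called C1qtnf3, Il17b, Ppa1, Alpl and Ibsp of these and gave no adjusted p for Mmp13, Fxyd2 and Car12. The 5 lower were C1qtnf3, Il17b, Ppa1, Fxyd2 and Car12. C1qtnf3 was at 355 and 61.9 CPM in the wild type and 40.01 and 2.47 CPM in the mutant (log2 ratio -3.34, SE 0.34, adjusted p = 1.17e-08), and Il17b at 163 and 92.8 CPM in the wild type and 13.8 and 12.4 CPM in the mutant (log2 ratio -3.34, SE 0.36, adjusted p = 5.72e-08). The C1qtnf3 and Prelp levels of mutant members at day 13, 40.01 and 47.7 CPM, were close to the 46.0 and 34.0 CPM of wild-type members of that age with Frzb at 5 or more. Mutant members at day 13 did not hold more Frzb than wild-type members of that age. On the scale of that cut, the median Frzb level was 2.96 in the mutant and 4.37 in the wild type. The share of members with no Frzb UMI was 16.7% in the mutant and 16.6% in the wild type. The part that the mixture of Frzb levels among members had in the genotype ratios was not tested.

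The 4 higher hypertrophic genes were Mmp13, Spp1, Ibsp and Alpl, all also made by bone cells. Alpl (alkaline phosphatase) was at 53.3 and 66.3 CPM in the wild type and 302 and 198 CPM in the mutant (log2 ratio 2.17, SE 0.25, adjusted p = 2.37e-07), and Ibsp (bone sialoprotein) at 298 and 354 CPM in the wild type and 840.2 and 1422 CPM in the mutant (log2 ratio 1.76, SE 0.29, adjusted p = 1.44e-04). Mutant neutrophil barcodes held 2149 and 445 CPM of Ibsp, above members at day 13 and below them at day 19, and 177 and 129.8 CPM of Mmp13. Mmp13, a collagenase, was at 1.82 and 2.21 CPM in the wild type and 23.1 and 27.2 CPM in the mutant, under those neutrophil levels. How much of the Mmp13 signal is background RNA was not tested. Spp1 (osteopontin) was at 90.6 and 64.1 CPM in the wild type and 206 and 5008 CPM in the mutant, and 1 barcode held 50.5% of the last sum.

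Of 4 osteoblast markers tested, Bglap, Col1a1 and Ibsp rose and Bglap2 fell, with medians of 1.33 and 2.61, and DESeq2 called Bglap and Ibsp. The list summed to 982 and 568 CPM in wild-type and 2847 and 3319 CPM in mutant members. Bglap (osteocalcin) was at 52.2 and 28.7 CPM in the wild type and 674 and 477 CPM in the mutant, with 58.9% and 52.8% of the mutant UMIs in 1 barcode. Neutrophil barcodes of the mutant held 1197 and 127 CPM of Bglap and 5559 and 1880 CPM of Col1a1. Col1a1 in mutant members, at 1296 and 1372 CPM, lay under those neutrophil levels. Bglap and Bglap2 are near-identical neighbouring genes, so how reads were divided between them is uncertain.

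Some fibrous matrix genes also rose. Of 12 tested, 4 rose (Col1a1, Col3a1, Col5a1, Col5a2) and 0 fell, with medians of 0.85 and 0.62, and DESeq2 called all but Col1a1 of these 4. Col5a2 was at 300 and 579 CPM in the wild type and 1053 and 1053 CPM in the mutant (log2 ratio 1.37, SE 0.29, adjusted p = 0.00342), against 343 and 218 CPM in mutant neutrophil barcodes. Col5a1 was at 47.5 and 35.4 CPM in the wild type and 140 and 198 CPM in the mutant (log2 ratio 1.86, SE 0.27, adjusted p = 1.34e-05), with 234 and 151 CPM in mutant neutrophil barcodes. Of 11 matrix proteases and inhibitors, 2 rose and 1 fell, with medians of 0.19 and 0.28, and DESeq2 called the 2 rises and not the fall. Timp3 (a metalloproteinase inhibitor) rose, at 266 and 488 CPM in the wild type and 599 and 957 CPM in the mutant (log2 ratio 1.09, SE 0.27, adjusted p = 0.0117). Ctsk (cathepsin K) fell, at 47.3 and 50.8 CPM in the wild type and 7.69 and 12.4 CPM in the mutant (log2 ratio -2.35, SE 0.46, adjusted p = 0.00118). Ctsk lay below the neutrophil level of 31.4 and 18.8 CPM in the mutant.

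The mutant-state list, 12 genes chosen in an earlier reading of these libraries for their rise in mutant chondrocytes, is not independent evidence of direction. Of its members 5 could be tested, and all 5 passed upward in edgeR (Myoc, Slurp1, Fabp4, Cxcl1 and, at levels under those of neutrophil barcodes, Mmp13), with medians of 3.30 and 3.43. Myoc, Slurp1 and Mmp13 passed the low-count filter through the mutant libraries, where they were high. The count of 5 is therefore a description and not a test of direction. DESeq2 called Slurp1 alone and gave no adjusted p for Mmp13. In the other chondrocytes 12 of 12 rose, with medians over those 12 of 5.30 and 4.66. The summed level of the 12 in members was 32.6 and 92.8 CPM in the wild type and 223 and 873 CPM in the mutant. Myoc was at 2.19 and 4.42 CPM in the wild type and 21.5 and 502 CPM in the mutant, with 65.5% of the last sum in 1 barcode. Slurp1 was at 0.972 and 17.7 CPM in the wild type and 29.2 and 190.4 CPM in the mutant, with 94.7% and 88.3% of mutant UMIs in 1 barcode and a class by genotype term of -2.92 (SE 0.53, adjusted p = 1.22e-04) against the other chondrocytes. Slurp1 was read in 4.17% and 20% of mutant members, and Myoc in 12.5% and 31.4%.

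Among the largest rises outside the lists was Rbp4, a retinol carrier, at 113 and 259 CPM in the wild type and 634 and 1615 CPM in the mutant (log2 ratio 2.58, SE 0.29, adjusted p = 1.02e-07). It was read in 87.5% and 91.4% of mutant members, against 52.6% and 73.1% in the wild type, and stood at 205 and 231 CPM in mutant neutrophil barcodes. Csrp2, a LIM-domain protein, was at 26.9 and 42.0 CPM in the wild type and 115 and 168 CPM in the mutant (log2 ratio 2.06, SE 0.27, adjusted p = 2.02e-06). Mgst1 (a glutathione transferase) and S100a6 (a calcium-binding protein) also rose, but both stood higher in neutrophil barcodes of every library than in members. C1rb, a complement protease gene with a close copy in the genome, had 0 UMIs in both wild-type libraries and 15 and 11 in the mutant, in 27.1% and 22.9% of members. Against a floor of 3 counts per library this is at least 63.3-fold higher at day 13 and at least 4.10-fold higher at day 19. C1rb fell outside the rule for named genes and was chosen after its values were seen.

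Largest among the falls, beside those named above, was Fam89a, at 74.8 and 57.5 CPM in the wild type and 9.23 and 2.47 CPM in the mutant (log2 ratio -3.37, SE 0.45, adjusted p = 3.26e-06). Its sums in the mutant were 6 and 1 UMIs. Pdrg1, a prefoldin-like protein, was at 286 and 404 CPM in the wild type and 114 and 131 CPM in the mutant (log2 ratio -1.45, SE 0.24, adjusted p = 1.71e-04) and Meltf, a membrane iron-binding protein of cartilage, at 137 and 179 CPM in the wild type and 60.02 and 56.9 CPM in the mutant (log2 ratio -1.38, SE 0.26, adjusted p = 9.38e-04). The tubulin gene Tubb2a, Lbh, Kazald1 (a matrix protein that binds growth factors) and Tnni2 (a troponin) fell too. Tubb2a was at 404 and 586 CPM in the wild type and 171 and 255 CPM in the mutant. Tnni2 was at 428 and 212 CPM in the wild type and 20.01 and 89.0 CPM in the mutant, with 46.2% and 50% of the mutant UMIs in 1 barcode. For each gene of this paragraph both mutant values lay below both wild-type values.

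**Figure D4:**
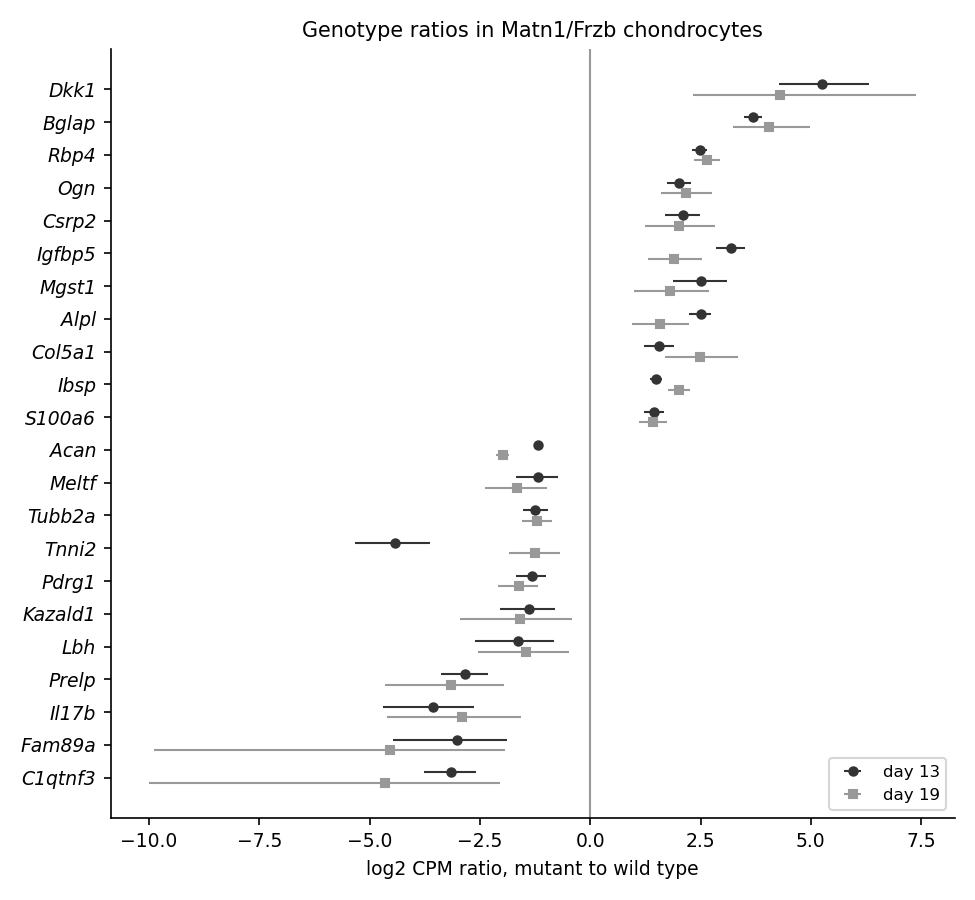
Log2 CPM ratio of mutant to wild type in members (x axis) for 11 higher and 11 lower named genes (y axis), day 13 as dark circles and day 19 as grey squares. Bars are exact 95% intervals for counting error only; every gene has the same sign at both ages, and Fam89a and C1qtnf3 at day 19 have the widest bars because the mutant held 1 UMI of each.

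Glycolysis, protein folding and S phase lists held no gene that passed. Of 16 glycolysis and hypoxia genes 0 passed in edgeR, 3 had an unadjusted p under 0.05 and DESeq2 called 0, with medians of -0.29 and -0.14. For 18 genes of ER folding and the unfolded protein response, 0 passed by any of these counts, with medians of 0.14 and -0.22. Of 2 S phase genes outside the rule 0 passed by any of them, with medians of -0.39 and 0.99. Of 16 immediate early and heat shock genes, which also mark handling of cells, 4 rose (Ier3, Nr4a1, Btg2, Hspb1) and 0 fell, with medians of 0.24 and 0.98, but DESeq2 called 0 of the 16. Ier3 was at 163 and 170.1 CPM in the wild type and 260.1 and 544 CPM in the mutant (adjusted p = 0.00589).

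Members also held UMIs of markers of other cells. Erythroid markers summed to 2343 and 2579 CPM in the wild type and 10918 and 8574 CPM in the mutant members and 4 of 4 tested rose in both tools, with medians of 2.52 and 1.75. A single barcode held 96.8% and 87.8% of the mutant UMIs of the haemoglobin gene Hbb-bs. Neutrophil markers summed to 82.0 and 2698 CPM in the wild type and 93.9 and 401 CPM in the mutant members, with 3 of 5 lower by genotype (S100a8, S100a9, Ngp; medians 0.32 and -2.66) and 0 called by DESeq2. A single barcode of the wild type at day 19 held 92.9% of its S100a8 and 95% of its S100a9. Macrophage markers (7 genes, 0 tested) summed to 15.6 and 61.9 CPM in the wild type and 7.69 and 12.4 CPM in the mutant, and endothelial markers (6 genes, 0 tested) to 17.7 and 6.63 CPM in the wild type and 15.4 and 9.89 CPM in the mutant. B cell markers (1 tested, 0 passed in edgeR, 1 at an unadjusted p under 0.05, 0 by DESeq2, medians -0.96 and -1.32) summed to 38.8 and 81.8 CPM in the wild type and 27.7 and 37.1 CPM in the mutant. Pericyte and smooth muscle markers (2 tested, 0 passed in edgeR, 1 at an unadjusted p under 0.05, 0 by DESeq2, medians 0.15 and 0.76) summed to 134 and 126 CPM in the wild type and 254 and 218 CPM in the mutant. Fibroblast and tendon markers (2 tested, Col3a1 higher in both tools, medians 0.87 and 0.74) summed to 324 and 380.1 CPM in the wild type and 828 and 638 CPM in the mutant. Their part in the genotype ratios was not tested.

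The genotype ratio of members was also set beside those of 2 further classes of chondrocyte barcodes, called Prg4-high (Prg4 at 10 or more) and resting-gene (Sfrp5, Pcp4 and Pappa2 at 5 or more in sum). Both are ranges cut from a per-barcode level and had no Matn1 clause. Against the Prg4-high class the term was higher for 19 (0.2%) and lower for 9 (0.0948%) of 9489 genes, and against the resting-gene class higher for 15 (0.169%) and lower for 19 (0.214%) of 8876. Of 9 collagens and partners, 9 aggregate proteoglycans and linkers and 11 sulfation genes, 0 were called either way against either class. Of 18 leucine-rich proteoglycans and cartilage proteins, 5 were higher and 1 lower against the Prg4-high class, and 1 each way against the resting-gene class. Of the 3 markers, 1 and 0 had a higher term. Both classes held fewer UMIs per library than the other chondrocytes. Rbp4 was at 838 and 1550 CPM in the wild type and 1456 and 1726 CPM in the mutant in the Prg4-high class, with a term of 2.10 (SE 0.28, adjusted p = 7.33e-04). Cytl1 was at 457 and 963 CPM in the wild type and 116 and 794 CPM in the mutant in that class, with a term of 2.54 (SE 0.52, adjusted p = 0.038). Sfrp2 was at 20.6 and 9.54 CPM in the wild type and 78.7 and 50.6 CPM in the mutant in the resting-gene class, with a term of -4.43 (SE 0.65, adjusted p = 0.00409). Ptpre, a receptor-type phosphatase, was at 26 and 24.3 CPM in the wild type and 67.7 and 69.2 CPM in the mutant among members, and at 22.3 and 28.6 CPM in the wild type and 13.1 and 13.0 CPM in the mutant in the resting-gene class, with a term of 2.35 (SE 0.43, adjusted p = 0.013).

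Msmo1, a sterol methyl oxidase, was lower at day 19 than at day 13 in members by both tools, as were 7 further genes of cholesterol synthesis or its control in edgeR alone. Of 4786 genes, 42 (0.878%) were higher and 23 (0.481%) lower at day 19 in the edgeR fit, and 16 and 4 in DESeq2. These 8 were among the falls that the rule for named genes returned. Hmgcs1 (HMG-CoA synthase) was at 254 and 88.4 CPM in the wild type and 254 and 109 CPM in the mutant (log2 ratio -1.41, SE 0.25, adjusted p = 6.61e-04), and Idi1, the isopentenyl isomerase, at 169.7 and 70.7 CPM in the wild type and 166 and 56.9 CPM in the mutant (log2 ratio -1.42, SE 0.27, adjusted p = 0.00115). Each day 19 value lay below both day 13 values.

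Fdft1 (squalene synthase) was at 89.6 and 39.8 CPM in the wild type and 81.6 and 24.7 CPM in the mutant (log2 ratio -1.43, SE 0.32, adjusted p = 0.00896), and Sqle (squalene epoxidase) at 166 and 57.5 CPM in the wild type and 194 and 98.9 CPM in the mutant (log2 ratio -1.27, SE 0.26, adjusted p = 0.00441). Msmo1 was at 286 and 86.2 CPM in the wild type and 239 and 101 CPM in the mutant (log2 ratio -1.52, SE 0.26, adjusted p = 2.71e-04), and Sc5d (a sterol desaturase) at 90.5 and 26.5 CPM in the wild type and 97.0 and 42.0 CPM in the mutant (log2 ratio -1.51, SE 0.32, adjusted p = 0.00489). Insig1, which holds the SREBP complex in the ER, and Stard4, a sterol carrier, fell with adjusted p of 0.0167 and 0.00182. In the other chondrocytes Hmgcs1 was at 211 and 175 CPM in the wild type and 237 and 230.2 CPM in the mutant, and Msmo1 at 217 and 174 CPM in the wild type and 147 and 153 CPM in the mutant. A class by age term, added after these values were seen, was lower for 30 (0.229%) of 13090 genes and higher for 28 (0.214%). The 8 genes were picked for their fall in members, so the term is given for them as a description: it was -1.28 for Hmgcs1, -1.40 for Msmo1, -1.23 for Fdft1 and -0.94 for Insig1. No list of sterol genes had been set, so the group is described from the genes that the naming rule returned. In DESeq2 the age call of Msmo1 held and those of the other 7 did not, and with the minimum at 60 none of the 8 passed.

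**Figure D5:**
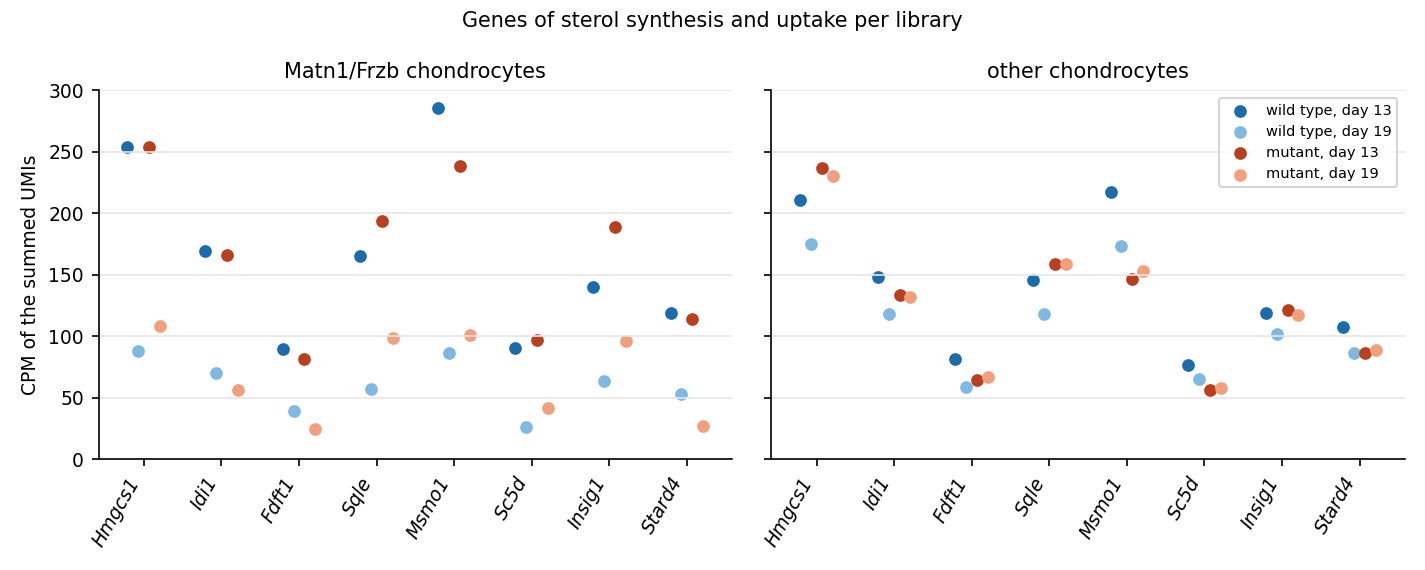
Level of 8 sterol genes as CPM of summed UMIs (y axis) in members (left) and other chondrocytes (right), 1 point per library. In members both day 19 points lie below both day 13 points for every gene, and in the other chondrocytes the points of the 2 ages lie close together or overlap. The genes were picked for their fall in members, so the left panel follows from that choice and the contrast is a description.

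Dlk1, another named fall, was at 549 and 57.5 CPM in the wild type and 400.1 and 114 CPM in the mutant (log2 ratio -2.53, SE 0.31, adjusted p = 7.12e-07) and was also lower at day 19 in the other chondrocytes, at 607 and 112 CPM in the wild type and 549 and 241 CPM in the mutant. The class by age term for Dlk1 was -0.79. C1qtnf3 and Prelp, named by genotype, were lower at day 19 as well in edgeR, and C1qtnf3 in DESeq2 (log2 ratio -2.75, SE 0.34, adjusted p = 7.94e-07 for C1qtnf3; log2 ratio -1.49, SE 0.29, adjusted p = 0.00151 for Prelp). In the other chondrocytes C1qtnf3 was at 559.6 and 860.2 CPM in the wild type and 32.7 and 59.97 CPM in the mutant and Prelp at 664 and 824 CPM in the wild type and 60.2 and 105 CPM in the mutant, with class by age terms, as a description, of -3.66 and -2.05. A C1qtnf3 UMI was held by 1 mutant member at day 19, and 1 barcode supplied 67.9% of the gene's UMIs in the wild type at that age.

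Higher at day 19 was G0s2, an inhibitor of the lipase Atgl, at 83.7 and 276 CPM in the wild type and 86.2 and 203 CPM in the mutant (log2 ratio 1.48, SE 0.24, adjusted p = 1.16e-04), although neutrophil barcodes held far more of it, 1224 CPM at the lowest. Fam25c was at 13.0 and 75.1 CPM in the wild type and 9.23 and 79.1 CPM in the mutant (log2 ratio 2.64, SE 0.37, adjusted p = 1.51e-05) and Zfp36l2, an RNA decay factor, at 25.3 and 81.8 CPM in the wild type and 46.2 and 116 CPM in the mutant (log2 ratio 1.499, SE 0.28, adjusted p = 0.00124). Hspb1, a small heat shock protein, was at 186 and 438 CPM in the wild type and 328 and 972 CPM in the mutant (log2 ratio 1.37, SE 0.26, adjusted p = 0.00147), and Olfml3, F3 (tissue factor) and Rbp4 had adjusted p of 0.00846, 0.00846 and 0.00896. DESeq2 did not call Zfp36l2, Olfml3 or F3. Gfod2 also passed, but 1 barcode held 51.4% and 82.7% of its UMIs at day 19. S100a8 and S100a9 passed too, and the neutrophil-like barcode named above held most of their wild-type UMIs at day 19. Both genes also rose in the mutant, and the smaller log2 CPM ratio of the genotypes was 1.91 for S100a8 and 1.58 for S100a9. At full depth an S100a8 UMI was held by 53.8% of wild-type and 54.3% of mutant members at day 19, against 15.97% and 27.1% at day 13. Among the lists, Fzd9 (a Wnt receptor) rose with age, at 71.3 and 192 CPM in the wild type and 135 and 218 CPM in the mutant (log2 ratio 1.05, SE 0.24, adjusted p = 0.0104), and Sfrp1 (a Wnt antagonist) fell (log2 ratio -1.44, SE 0.38, adjusted p = 0.0433), and DESeq2 called neither. Cilp2, Abi3bp and Spon1, all secreted matrix proteins, rose, and Epyc (epiphycan), Bmp3 and Tnmd fell in edgeR, while DESeq2 called Cilp2 alone of these 6. Cilp2 was at 41.6 and 170.1 CPM in the wild type and 76.9 and 176 CPM in the mutant (log2 ratio 1.63, SE 0.25, adjusted p = 7.35e-05), and Epyc at 401 and 133 CPM in the wild type and 266 and 158 CPM in the mutant (log2 ratio -1.22, SE 0.26, adjusted p = 0.00605). The markers Enho, Il17d and Cd200 did not pass by age, with adjusted p of 0.736, 0.998 and 0.987.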

How the data were processed

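Single-cell RNA was captured from digested mouse tibial and femoral epiphyses in 4 libraries with Chromium Single Cell v3 chemistry, per the labels. The deposited matrices hold raw UMI counts from Cell Ranger 3.1.0, per the file headers, on mm10, per the submitters' processing notes; no source used here gives the authors' filter on barcodes. Members and lists were chosen with earlier results of these data known.

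Kept were 30952 of 39898 barcodes, those with at least 500 genes and no more than 15% mitochondrial UMIs. Doublets stayed in; removing Scrublet scores above 0.2 was an alternative. UMI counts were summed per library and class and tested with edgeR 4.0.16 (quasi-likelihood, TMM, filterByExpr, Benjamini-Hochberg, threshold 0.05) in R 4.3.3, with genotype and age as terms and 1 residual degree of freedom. The low-count filter grouped libraries by genotype, so a gene near 0 in the wild type could enter through the mutant alone, or the reverse. Class by genotype tests used the library as block. DESeq2 1.42.0 was the other tool. The code was tested on simulated data.

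Named genes were Sox9, Sox5, Sox6, Sox8, Acan and the markers; the 12 highest and 12 lowest by genotype and 10 each way by age, by the smaller log2 CPM ratio over the pair of libraries compared, among called genes of 50 CPM or more; 5 each way per class by genotype test; 12 each way against the other chondrocytes; and up to 4 per list, with called list genes; some of these are not reported here. CPM ratios at 1 age carry exact conditional binomial 95% intervals.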

Additional observations from a re-analysis of the deposited data

Results flagged for a closer look

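Each gene below was picked out because its mutant to wild-type ratio differed between members and another class of chondrocytes, by edgeR's class by genotype term with an adjusted p under 0.05. Values are log2 terms, positive where the ratio was higher in members. They are the 5 largest each way per comparison among genes of 50 CPM or more in any sum.

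Against the other chondrocytes the term was 6.62 for Rgs5, a pericyte gene, but 1 barcode held 100% of its UMIs in mutant members at day 13. It was 3.48 for Saa1 (serum amyloid A), with 94.2% of its UMIs in mutant members at day 19 in 1 barcode, 3.37 for Dkk1, 3.27 for Il17b and 2.42 for M1ap. It was -4.55 for Sfrp2, -3.40 for Gal (galanin) and -2.92 for Slurp1. It was -3.53 for Retnlg and -2.96 for Lyz2, genes of myeloid cells, whose markers were high in 1 barcode of wild-type members at day 19.

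Against the Prg4-high class the term was 3.85 for Msmp, 2.78 for Igfbp5, 2.54 for Cytl1, 2.10 for Rbp4 and 2.004 for Adgrg6. It was -3.77 for Retnlg, -3.37 for S100a8, -2.32 for F3, -2.16 for Fabp5 and -2.03 for Srxn1.

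Against the resting-gene class the term was 6.93 for Saa1, 6.19 for Krt16, 3.37 for Bglap, 2.35 for Ptpre and 2.22 for Fam43a. It was -4.43 for Sfrp2, -4.11 for S100a8, -3.84 for Arsi, -3.43 for Sema3d and -3.13 for Fbn2. The S100a8 terms rest on the same wild-type barcode, which held 92.9% of that gene's UMIs.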

How the results depend on the processing

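Calls by genotype, 110 higher and 59 lower, became 26 and 11 with DESeq2, 704 and 417 with Matn1 and Frzb at 15 or more, 2 and 0 at 60 or more, 56 and 36 with equal numbers of members, 13 and 2 without an age term, 222 and 95 with the rule applied after thinning, and 31 and 24 without haemoglobin-rich barcodes. Calls by age, 42 and 23, became 16 and 4 with DESeq2, 0 and 0 at 60 or more (edgeR; 61 genes at an unadjusted p under 0.05), 22 and 15 with equal numbers, 20 and 8 after thinning, and 12 lower without haemoglobin-rich barcodes. Without the top barcode of each gene, the lower terms against the other chondrocytes went from 67 to 42, the Prg4-high terms from 19 and 9 to 36 and 37, the higher resting-gene terms from 15 to 9 and the higher class by age terms from 28 to 10. Without the low-count filter the Prg4-high terms became 33 and 32 and the resting-gene terms 37 and 42. The lower Prg4-high terms became 5 with RLE size factors, 4 without doublets and 5 without haemoglobin-rich barcodes. The log2 share ratio at day 13 became -3.96 with the minimum at 60 and -4.62 with Frzb alone at 15 or more, and that at day 19 -1.27 with Frzb alone. The cause of these shifts was not tested.

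Of 353 genotype ratios of named genes under alternatives, 306 kept direction and side of the threshold, 44 lost the call and 3 changed sign, none of which had passed: Cd200 at 15 or more (0.0101), Sox5 at 60 or more (0.73) and Il17d with equal numbers (-0.031). Of 215 age ratios 166 kept both and 49 lost the call. No paired analysis was possible because each genotype and age has 1 library. A fit with Frzb alone was not run, since it left 1 member in the mutant at day 13. Alternatives on Scrublet scores, haemoglobin and top barcodes, and the class by age test, were chosen after seeing the data. The 3 small sums, of 404380 to 649819 UMIs, limit low genes: 1 UMI there is worth 1.54 to 2.47 CPM.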
